A study of Mus musculus with 13 samples.

Results

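A set of 10 genes of the insulin-like growth factor (IGF) system was examined in the brains of creatine-fed and untreated mice. They are the ligands Igf1 and Igf2, the receptors Igf1r and Insr, the adaptors Irs1 and Irs2, and the binding proteins Igfbp2, Igfbp3, Igfbp4 and Igfbp5. Every probe set with 1 of these symbols and no other was taken, which gave 27 probe sets for the 10 genes, among 45037 probe sets tested in all. The 6 creatine-fed mice received 1% creatine in their pellets over 6 months, and the 7 untreated mice received equicaloric pellets without it. All 13 mice were males of the inbred strain C3HeB/FeJ, aged 10 to 12 weeks when feeding began, and 1 brain hemisphere of each gave the RNA for 1 Affymetrix array. Creatine, once phosphorylated, serves brain and muscle cells as a quick reserve for remaking ATP.

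IGF-1 and IGF-2 are secreted peptides that bind the receptor tyrosine kinase encoded by Igf1r. Insulin and, with lower affinity, the IGFs act through the related insulin receptor, and both receptors pass the signal to the adaptor proteins IRS-1 and IRS-2, then to the phosphoinositide 3-kinase and Ras pathways. Binding proteins hold most IGF outside cells and can limit or prolong its action, and proteases such as PAPP-A release it. In the adult rodent brain, Igf2 and Igfbp2 transcripts come largely from the choroid plexus and the leptomeninges, the membranes around the brain, while Igf1r is transcribed widely in neurons. In bulk tissue, fewer cells of a type and less RNA per cell cannot be told apart.

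Positions are on the mouse build GRCm38.p6, as given by RefSeq. Igf1 lies at chr10:87858265-87937047. Igf2 lies at chr7:142650768-142666816 and Igf1r at chr7:67952257-68233668. Insr is at chr8:3150922-3279649 and Irs2 at chr8:10984681-11008929. Igfbp3 is at chr11:7206086-7215498, Igfbp4 at chr11:99040005-99052655 and Irs1 at chr1:82233105-82291439. Igfbp2 (chr1:72824480-72852474) and Igfbp5 (chr1:72858065-72874865) are neighbours that are transcribed towards each other, with 5590 bases between their ends. All 10 genes are protein coding. Where each probe set falls within its gene was not analysed here.

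The 250 bases before a listed start of 3 binding protein genes are shown because the values below turn most on these genes. They are Igfbp5 and its neighbour Igfbp2, and Igfbp4, which has the most probe sets. The Igfbp4 start used here lies inside the gene span given above, downstream of the first base of that span. Capitals mark matches on either strand to motifs searched for. The TATA box was spelled TATAAA. A variant of it was spelled TATTTAA. The GC box, which Sp1 and its relatives bind, was spelled GGGCGG. The E-box was spelled CACGTG. No matches overlap in the stretches shown. Sequences are from RefSeq, build GRCm38.p6, written 5′ to 3′ on the strand of the gene.
Igfbp2, plus strand, chr1:72824230-72824479: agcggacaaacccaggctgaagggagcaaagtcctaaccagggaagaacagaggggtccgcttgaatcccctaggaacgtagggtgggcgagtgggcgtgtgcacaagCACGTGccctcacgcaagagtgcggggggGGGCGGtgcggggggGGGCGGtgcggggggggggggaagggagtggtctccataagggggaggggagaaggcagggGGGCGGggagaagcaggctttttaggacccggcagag
Igfbp5, minus strand, chr1:72874866-72875115: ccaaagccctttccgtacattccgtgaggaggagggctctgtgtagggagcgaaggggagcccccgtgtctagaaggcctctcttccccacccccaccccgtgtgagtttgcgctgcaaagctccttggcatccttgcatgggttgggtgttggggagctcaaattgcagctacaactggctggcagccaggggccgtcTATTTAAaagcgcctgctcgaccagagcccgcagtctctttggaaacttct
Igfbp4, plus strand, chr11:99040994-99041243: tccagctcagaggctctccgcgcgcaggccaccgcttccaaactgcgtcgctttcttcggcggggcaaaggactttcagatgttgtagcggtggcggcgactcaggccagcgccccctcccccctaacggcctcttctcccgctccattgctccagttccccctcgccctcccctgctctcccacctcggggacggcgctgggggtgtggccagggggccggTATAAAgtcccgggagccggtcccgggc
The Igfbp5 stretch holds TATTTAA beginning 51 bases before the start. The Igfbp4 stretch holds TATAAA beginning 28 bases before the listed start inside the gene span. Among 32851 promoters of the same length, 4.18% held TATTTAA and 12.4% held TATAAA. The Igfbp2 stretch shown holds 3 GC boxes and 1 E-box, letters found in 32.7% and 6.02% of promoters. A second promoter listed for Igfbp2, chr1:72825137-72825386, holds 0 of either. Of 13 promoters listed for 9 of the genes, 6 held a GC box (in Igf1r, Igf2, Igfbp2, Irs1 and Irs2) and 3 an E-box (in Igfbp2, Irs1 and Irs2). None of the 13 held GTAAACA, the core of FoxO binding sites, which 3.17% of all promoters held. These matches describe the letters in the window only.

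Values are intensities on a linear scale, set by the authors so that every array has nearly the same trimmed mean, with array medians of 37 to 45. Pearson's r between arrays ran from 0.975 to 0.987 across probe sets, which are not independent replicates. One array stood apart in the brain tissue it represents. Gabra6, a receptor subunit of cerebellar granule cells, had intensities of 556 to 1952 in creatine-fed mice and 1248 to 2494 in untreated mice other than replicate 3, which had 22. Summed intensity of 10 cerebellar markers ran from 6432 to 15228 in creatine-fed mice and from 2643 to 19796 in untreated mice. That of 8 olfactory bulb markers ran from 359 to 591 in creatine-fed mice and from 389 to 1296 in untreated mice, with the highest value again in untreated replicate 3. All 9 measured cerebral cortex markers lay over the array median on all 13 arrays, and no cerebellar marker was at 0 in any mouse.

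No probe set of the 10 genes passed the test between the groups. With limma's moderated test on log2(intensity + 16) and Benjamini-Hochberg adjustment across the 45037 probe sets, 0 of 27 passed 0.05, against 0.00888% of all probe sets (4). Adjusted p ran from 0.204 to 0.991. At an unadjusted p under 0.05 there were 2 of 27 (7.41%), below the share of 11.9% of all probe sets. In 0 of 27 did the groups fail to overlap, as they did in 0.56% of all probe sets. The mean was higher in creatine-fed mice for 14 probe sets and lower for 13, and their median log2 difference was 0.01, against -0.03 over all probe sets. The median size of the difference regardless of sign was 0.11, and over all probe sets 0.10.

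**Figure D1:**
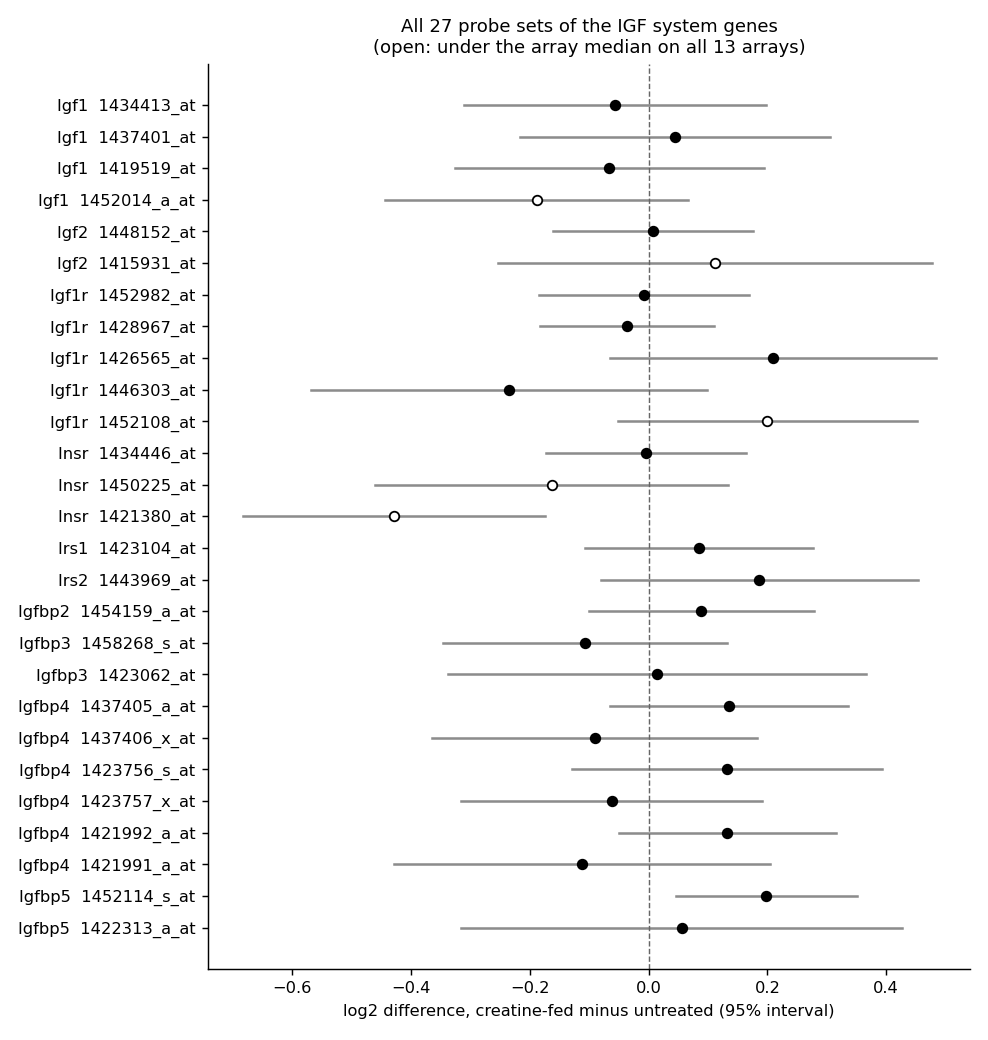
Log2 difference of each of the 27 probe sets, creatine-fed minus untreated, on the log2(intensity + 16) scale, with its 95% interval from limma over 6 and 7 mice; open points lay under the array median on all 13 arrays. The intervals of 25 probe sets include 0, and those of Insr at 1421380_at (below 0) and Igfbp5 at 1452114_s_at (above 0) do not, before any adjustment for the number of probe sets.

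The precision of these comparisons can be read from the brightest probe set of each gene, the one with the highest mean over the 13 arrays. Its log2 difference ran from -0.11 for Igfbp3 to 0.20 for Igfbp5, and the 95% interval reached 0.15 to 0.27 to either side, with a median of 0.19. Means were higher in creatine-fed mice for 6 of these 10 and lower for 4.

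**Figure D2:**
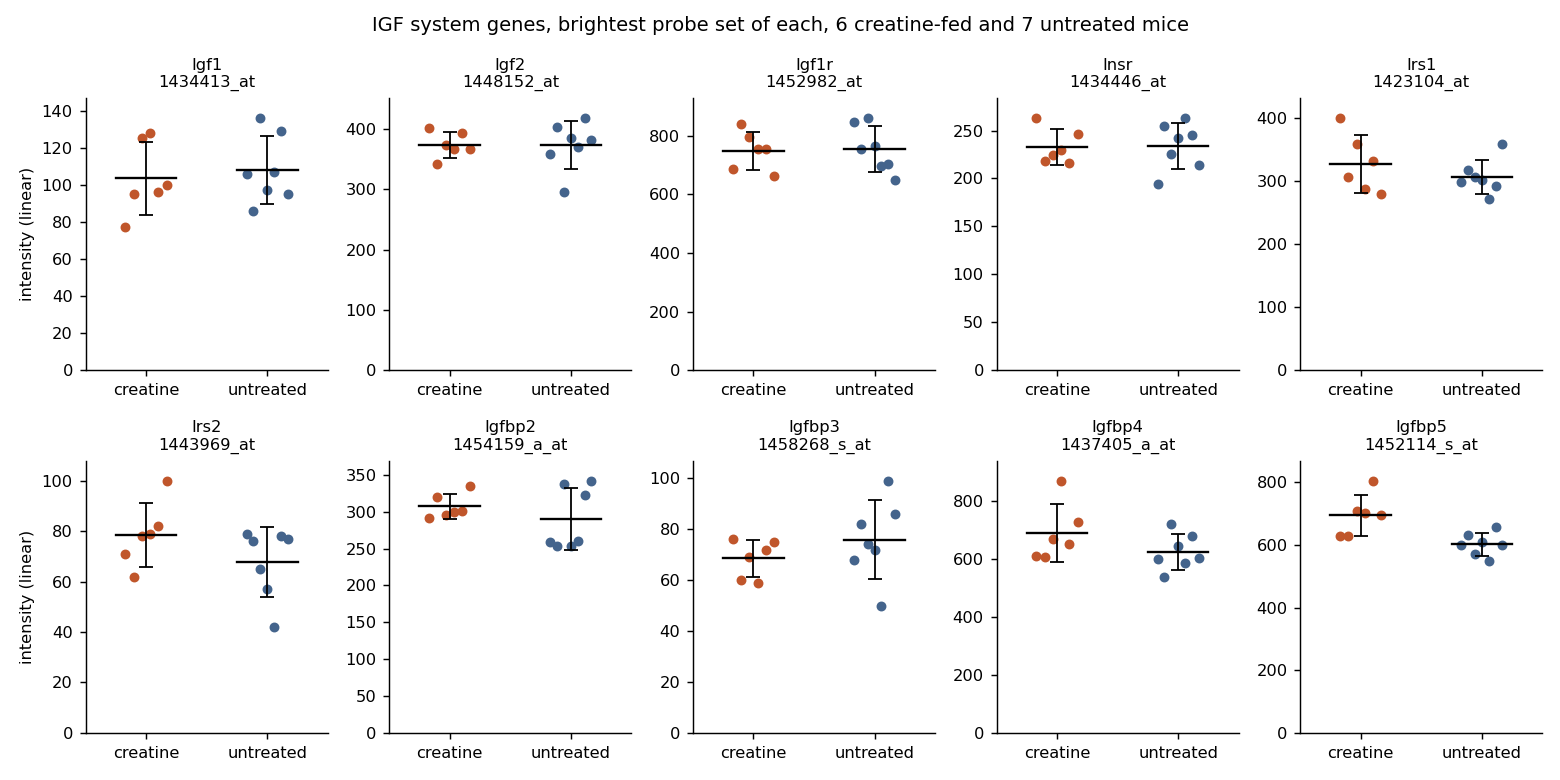
Intensity (linear scale, from 0) of the brightest probe set of each gene in every mouse, with creatine-fed mice on the left and untreated mice on the right of each panel; bars are mean and SD, n = 6 and 7. The groups overlap in all 10 panels, and 4 of the 6 creatine-fed mice lie over the highest untreated mouse for Igfbp5 (656).

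Igf1 encodes the growth factor whose circulating form is made mainly in liver and whose brain form comes from neurons and glia. At 1434413_at its intensity was 77, 98 and 128 (lowest, median and highest) in creatine-fed mice, against 86, 106 and 136 in untreated mice. The ranges overlapped over most of their length, and the log2 difference was -0.06 ± 0.12 (SE, adjusted p = 0.901, limma). The other moderately bright probe set, 1437401_at, gave 91, 103 and 122 in creatine-fed mice and 81, 88 and 138 in untreated mice, with a log2 difference of 0.04 ± 0.12. In both, untreated replicate 3 was the highest of all 13 mice, and without it the log2 differences were -0.01 (1434413_at) and 0.11 (1437401_at), with adjusted p of 0.994 and 0.734. The dim sets 1419519_at and 1452014_a_at, under the array median on 12 and 13 arrays, had log2 differences of -0.07 and -0.19.

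Igf2 is an imprinted gene, expressed from the paternal allele in most tissues. Its bright probe set 1448152_at had 342, 370 and 402 in creatine-fed mice and 296, 381 and 418 in untreated mice. The creatine-fed mice lay inside the untreated range, and the means of 374 ± 21.6 in creatine-fed mice (SD, n = 6) and 373 ± 39.4 in untreated mice (SD, n = 7) differed by 0.01 ± 0.08 on the log2 scale (SE, adjusted p = 0.986, limma). The 95% interval of that difference ran from -0.16 to 0.18. The lowest value, 296, belonged to untreated replicate 3, without which the log2 difference was -0.04 (adjusted p = 0.834). The second set, 1415931_at, was under the array median on every array, at 13.8 ± 7.47 in creatine-fed mice and 11.3 ± 5.22 in untreated mice (SD).

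Igf1r had 5 probe sets. The brightest, 1452982_at, had 661, 754 and 839 in creatine-fed mice and 648, 756 and 860 in untreated mice. The log2 difference was -0.01 ± 0.08 (SE, adjusted p = 0.986, limma). The ranges nearly coincided. Untreated replicate 3 had the highest value, 860, and without it the log2 difference was 0.02 (adjusted p = 0.942). At 1428967_at the log2 difference was -0.04 ± 0.07. The remaining 3 sets had larger differences that did not pass and did not share a sign. At 1426565_at values were 121, 185.5 and 208 in creatine-fed mice and 113, 158 and 187 in untreated mice, with 5 of 6 creatine-fed mice over the untreated mean and a log2 difference of 0.21 ± 0.13 (adjusted p = 0.555). At 1446303_at they were 39, 58.5 and 92 in creatine-fed mice and 52, 78 and 95 in untreated mice, a log2 difference of -0.23 ± 0.16 (adjusted p = 0.587). These 2 sets point opposite ways between the groups, yet across mice, after removing group means, they varied together more than any other pair of Igf1r sets (r = 0.66, 13 mice, same arrays). The dim set 1452108_at had a log2 difference of 0.20 ± 0.12.

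Insr encodes the insulin receptor, which the brain uses both for insulin and in hybrid receptors with the Igf1r product. Its bright probe set 1434446_at had 216, 227 and 263 in creatine-fed mice and 194, 242 and 263 in untreated mice, with means of 233 ± 18.3 in creatine-fed mice (SD, n = 6) and 234 ± 24.3 in untreated mice (SD, n = 7). The highest mouse of each group had the same value. The log2 difference was below 0.01 in size, with a 95% interval from -0.17 to 0.16. The dim set 1421380_at had 2, 8 and 14 in creatine-fed mice and 11, 15 and 20 in untreated mice. Each of the 6 creatine-fed mice was under the mean of the untreated mice, and the groups overlapped between 11 and 14. Its log2 difference of -0.43 ± 0.12 had the smallest p of the 27 probe sets (unadjusted p = 0.0028, adjusted p = 0.204, limma). It was under the array median on all 13 arrays, and its size depended on the offset added before log2: an offset of 50 gave -0.19 and an offset of 1 gave -1.13. The third set, 1450225_at, also dim, had a log2 difference of -0.16 ± 0.14. Its range was 11 to 20 in creatine-fed mice, all 6 under the untreated mean of 21.4, and 11 to 34 in untreated mice.

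**Figure D3:**
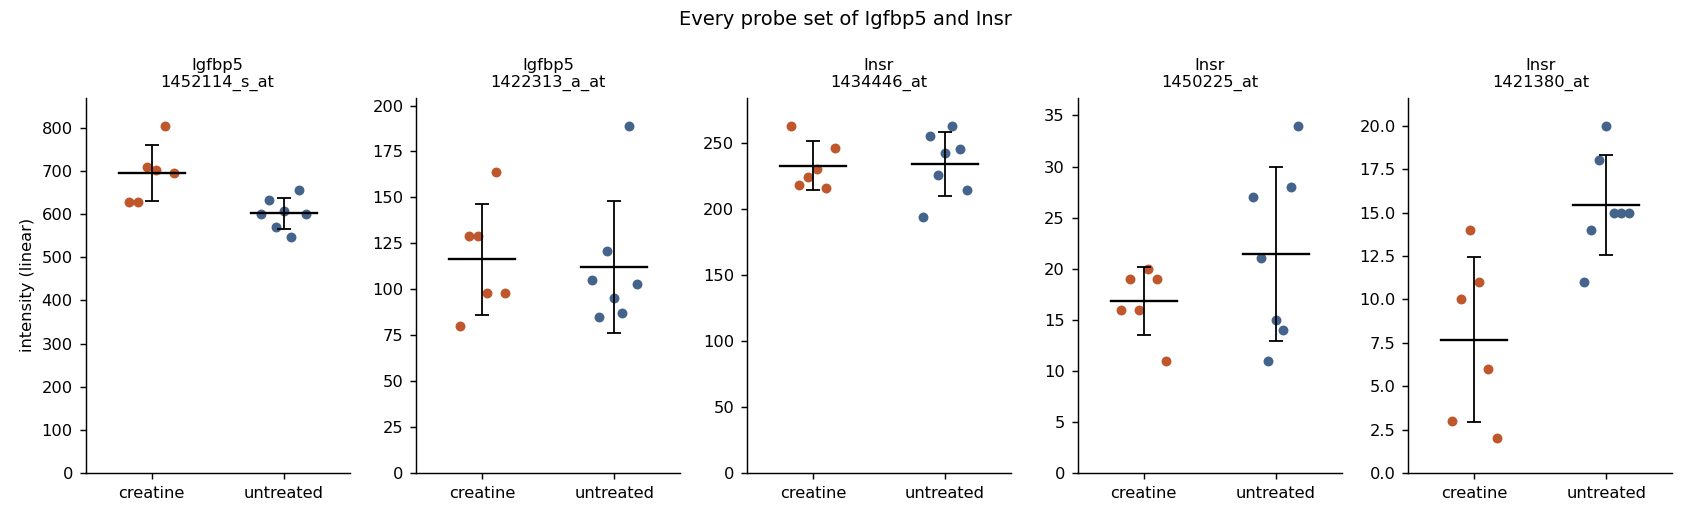
Intensity (linear scale, from 0) of both Igfbp5 probe sets and all 3 Insr probe sets in every mouse, creatine-fed on the left and untreated on the right; bars are mean and SD. The 2 probe sets with an unadjusted p under 0.05 (limma) are Igfbp5 at 1452114_s_at and Insr at 1421380_at. The groups overlap in every panel. At Insr 1450225_at, as at 1421380_at, all 6 creatine-fed mice lie under the untreated mean.

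The adaptors had 1 probe set each. Irs1, at 1423104_at, had 279, 319.5 and 400 in creatine-fed mice and 271, 301 and 359 in untreated mice. A log2 difference of 0.09 ± 0.09 resulted (SE, adjusted p = 0.760, limma). Irs2 encodes the adaptor whose loss in mice impairs brain growth and causes diabetes. At 1443969_at it had 62, 78.5 and 100 in creatine-fed mice and 42, 76 and 79 in untreated mice. A single creatine-fed mouse at 100 and a single untreated mouse at 42 set the ends of these ranges, and the log2 difference was 0.19 ± 0.12 (adjusted p = 0.591).

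Igfbp5, a binding protein that attaches to extracellular matrix, came nearest to a difference among the bright probe sets. At 1452114_s_at the creatine-fed mice had 629, 628, 709, 703, 805 and 696, against 600, 633, 571, 608, 548, 656 and 601 in the untreated mice. The mean was 695 ± 65.1 in creatine-fed mice (SD, n = 6) and 602 ± 36.0 in untreated mice (SD, n = 7). All 6 creatine-fed mice lay over the untreated mean, and the lowest 2 of them lay under the 2 highest untreated mice. That gave a log2 difference of 0.20 ± 0.07 (SE, 95% interval 0.05 to 0.35), with unadjusted p = 0.0144 and adjusted p = 0.293 (limma), so it did not pass. The log2 difference stayed between 0.16 and 0.25 over the 26 alternatives, with adjusted p from 0.146 to 0.455. The ending _s_at marks probes that can match further transcripts. Its slope on the mean of 10 cerebellar markers, fitted beside the group, was 0.02 ± 0.04 (SE), and -0.04 ± 0.09 without untreated replicate 3. Without that mouse the log2 difference between the groups was 0.19.

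The second Igfbp5 probe set, 1422313_a_at, had a smaller difference with a wider error, and the sets were not tested against each other. It had 80, 113.5 and 164 in creatine-fed mice and 85, 103 and 189 in untreated mice. The log2 difference was 0.06 ± 0.17 (SE, adjusted p = 0.939, limma). The highest untreated mouse stood apart from the next, at 121. Across mice, after removing group means, both sets varied together (r = 0.57, 13 mice, same arrays).

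Igfbp2 encodes the main binding protein of cerebrospinal fluid. At 1454159_a_at it had 291, 300.5 and 335 in creatine-fed mice and 254, 260 and 342 in untreated mice. The creatine-fed mice lay close together, while 4 untreated mice had 254 to 260 and the other 3 had 323 to 342. All 6 creatine-fed mice were over the untreated mean of 289.9 ± 41.7 (SD, n = 7), but the log2 difference of 0.09 ± 0.09 did not pass (SE, adjusted p = 0.742, limma). With its neighbour Igfbp5, r between the brightest sets was 0.01 (group means removed, 13 mice).

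Igfbp3 encodes the main carrier of IGF in blood. Its sets 1458268_s_at and 1423062_at had log2 differences of -0.11 ± 0.11 and 0.01 ± 0.16. At the first, values were 59, 70.5 and 76 in creatine-fed mice and 50, 74 and 99 in untreated mice, so the untreated range enclosed the creatine-fed one.

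Igfbp4 encodes the binding protein that PAPP-A cuts to release IGF, and it had 6 probe sets. The brightest, 1437405_a_at, had 607, 660.5 and 869 in creatine-fed mice and 537, 602 and 720 in untreated mice. Its log2 difference was 0.14 ± 0.09 (SE, adjusted p = 0.607, limma). Creatine replicate 4 gave the highest value, 869. The sets 1423756_s_at and 1421992_a_at each had a log2 difference of 0.13, and 1437406_x_at, 1423757_x_at and 1421991_a_at had -0.09, -0.06 and -0.11. So 3 sets were higher and 3 lower in the mean, and none passed (adjusted p from 0.575 to 0.887). Names ending in _x_at, like those in _s_at, mark probes that can match other transcripts too.

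The 6 Igfbp4 probe sets shared the sign of their slope on the cerebellar markers, though no slope passed. A limma fit of each probe set on the mean log2 intensity of 10 cerebellar markers, beside the group, called 0.671% of all probe sets and 0 of the 27. At an unadjusted p under 0.05 there were 5 of 27, against 10.5% of all probe sets. These 5 sets belonged to Igfbp4, Igf1 and Igf2 only, so they are not 5 separate genes. All 6 Igfbp4 sets had slopes below 0, from -0.16 to -0.05, and without untreated replicate 3 all 6 were again below 0, from -0.48 to -0.19. The 6 sets read 1 gene on the same arrays, with r between them of -0.08 to 0.83 after removing group means. Their shared sign is therefore not 6 separate observations. At 1437405_a_at the slope was -0.12 ± 0.04 (SE, adjusted p = 0.282) and, without that mouse, -0.33 ± 0.07 (adjusted p = 0.0657), where 0.993% of all probe sets were called and 0 of the 27. At an unadjusted p under 0.05 there were then 8 of 27, against 12.5% of all probe sets. Creatine replicate 4, highest for this set, had the second lowest cerebellar marker mean of the 13 mice. With the cerebellar marker mean as a covariate, 0 of 27 probe sets passed between the groups and 2 had an unadjusted p under 0.05, against 12.9% of all probe sets. Among the 22519 brighter probe sets, 1 of the 21 tested had an unadjusted p under 0.05, against 16.6% of all of these.

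The brighter sets of Igf1 and Igf2 had slopes of opposite sign on that measure. The Igf1 slopes were -0.15 ± 0.05 at 1434413_at and -0.15 ± 0.05 at 1437401_at (SE, adjusted p = 0.324 and 0.303, limma). Without untreated replicate 3 they were -0.31 ± 0.12 and -0.18 ± 0.13. The Igf2 slope at 1448152_at was 0.10 ± 0.03 (adjusted p = 0.319), and without that mouse it was 0.02 ± 0.08, so it rested on untreated replicate 3. At Igf1r, 4 of 5 slopes were over 0, and at 1446303_at the slope was 0.14 ± 0.08, against 0.57 ± 0.14 without that mouse (adjusted p = 0.0852, limma). Creatine replicate 4 had the lowest 1446303_at value of all mice, 39, and the lowest marker mean once untreated replicate 3 was left out. No slope was fitted without both of these mice. Each slope is the change in log2(intensity + 16) per unit of the marker mean on the same scale. Fitting them was chosen after the data were seen.

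**Figure D4:**
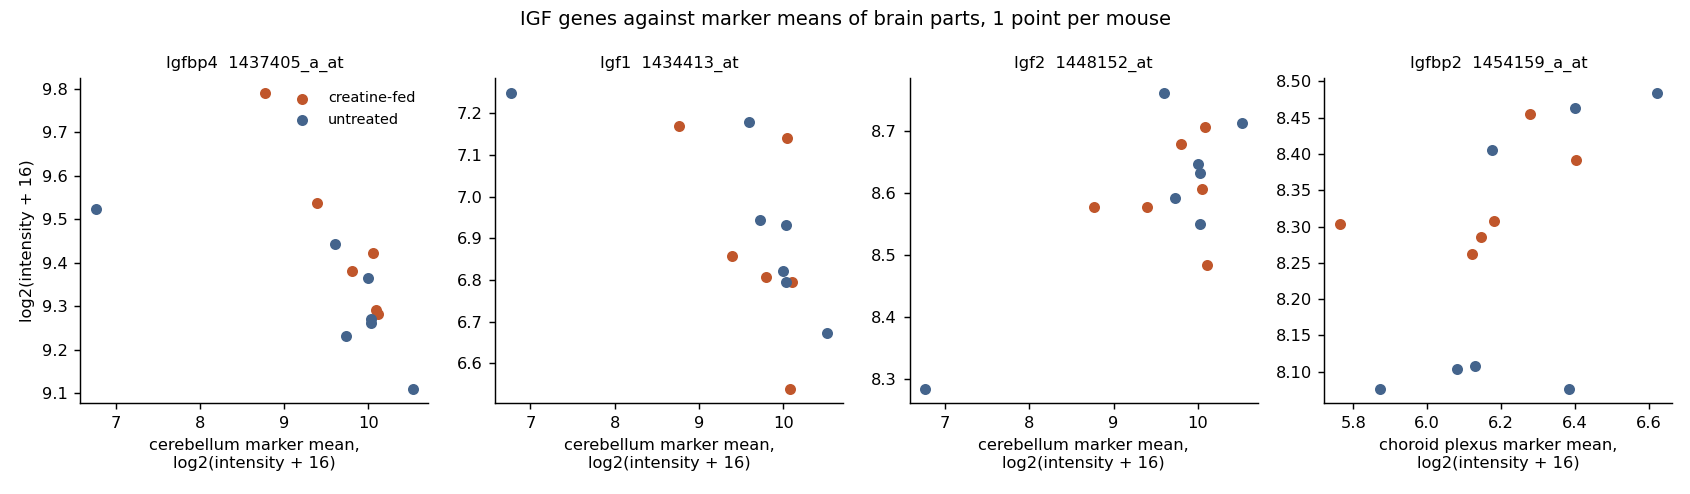
Log2(intensity + 16) of Igfbp4, Igf1 and Igf2 against the mean of 10 cerebellar markers, and of Igfbp2 against the mean of 12 choroid plexus markers, 1 point per mouse (creatine-fed and untreated coloured apart; both axes log2). Igfbp4 and Igf1 lie lower towards the right, and the single untreated mouse at a cerebellar mean of 6.77 is the lowest for Igf2.

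Because Igf2 and Igfbp2 are transcribed in the choroid plexus and leptomeninges, their brightest sets were set against the markers of both. The choroid plexus list had 12 measured markers, among them Ttr, the transthyretin carrier of thyroid hormone (7707 ± 1355 in creatine-fed mice and 8057 ± 2129.9 in untreated mice, SD). The next brightest were Clic6 (104 in creatine-fed and 99.9 in untreated mice), Kcnj13 (70.8 in creatine-fed and 65.9 in untreated mice) and Sostdc1 (56.7 in creatine-fed and 69.9 in untreated mice). Summed intensity was 6013 to 9799 in creatine-fed mice and 4978 to 11859 in untreated mice. Ttr made up most of this sum, at 5720 to 9385 in creatine-fed mice and 4689 to 11227 in untreated mice. The mean was higher in creatine-fed mice for 3 markers and lower for 9, and 0 of 12 passed. Of the 12, Otx2, Slc4a5, F5 and Steap1 were under the array median on all 13 arrays, and Folr1, Aqp1 and Kcne2 on 12. The marker mean used below gives all 12 the same weight. The leptomeninges list had 14 measured markers, the brightest being Mgp (261 in creatine-fed and 259.9 in untreated mice), Slc6a20a (200.2 in creatine-fed and 192 in untreated mice), Dcn (175 in creatine-fed and 166 in untreated mice) and Islr (179.8 in creatine-fed and 157 in untreated mice). Its summed intensity was 1435 to 1873 in creatine-fed mice and 1487 to 1784 in untreated mice, and 0 of 14 passed.

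The relation of Igfbp2 to the choroid plexus marker mean was the closest of 6 computed, and it did not pass after adjustment over them. After removing group means, Pearson's r was 0.60 (permutation p = 0.0303, adjusted p = 0.182 over 6 relations, 2-sided, 13 mice) and Spearman's rho 0.57 (permutation p = 0.0459, adjusted p = 0.276). Without the 2 mice farthest from the median of the marker mean, r was 0.54. Over all 13 mice it was 0.50 when group means were not removed, 0.64 after quantile normalization and 0.56 with an offset of 1. It did not pass after adjustment in any of these. Igf2 had r = -0.20 with the choroid plexus mean and 0.02 with the leptomeninges mean, and Igfbp2 had -0.14 with the leptomeninges mean. Igf2 and Igfbp2 had r = -0.35 with each other, and both marker means had r = -0.37. Untreated replicate 3 was the lowest for Igf2, and without it r was 0.06 between Igf2 and Igfbp2, -0.03 between Igf2 and the choroid plexus mean, and -0.27 between Igf2 and the leptomeninges mean. For Igfbp2 and the choroid plexus mean it was 0.58. Over all 13 mice the permutation p of the 5 other relations ran from 0.220 to 0.954, and the adjusted p of all 6 was 0.182 or more.

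Across mice, the 10 genes did not all vary together. Over 45 pairs of brightest sets, group means removed, r ran from -0.60 (Igf2 with Igf1r) to 0.78 (Igf1 with Igfbp4). The next highest were Irs2 with Igfbp3 (0.74) and Irs2 with Igfbp5 (0.60). Untreated replicate 3 had both the lowest Igf2 and the highest Igf1r value, and without it r for that pair was -0.43, for Igf1 with Igfbp4 0.73 and for Irs2 with Igfbp3 0.74. These describe mice that share arrays, scaling and tissue content. Among 19684 brighter probe sets with 1 symbol, those whose pattern was most like Igf1 belonged to Csgalnact1 (r = 0.97), Crip2 (0.95) and Mapk8 (0.94). For Igf2 they were Irf3 (0.89), Dvl1 (0.89) and Chpt1 (0.88), for Igfbp2 Prss12 (0.92), Pygl (0.91) and Nrip3 (0.91), and for Igf1r Grn (0.88), Nup214 (0.85) and Yy1 (0.85). Without untreated replicate 3 the Igf2 values were 0.70 for Irf3, 0.77 for Dvl1 and 0.69 for Chpt1, while the r of the other 9 genes with their members ran from 0.84 to 0.98. These genes were picked for the highest r among the 19684 over the same mice. The r without that mouse is therefore no separate check. Whether so high an r goes beyond what picking from so many gives was not tested.

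The other genes of the pathway also held no call. Over 6 lists with 58 genes that have a named probe set, each taken at its brightest, 0 passed the adjusted threshold, 28 had a higher mean in creatine-fed mice and 30 a lower one. At an unadjusted p under 0.05 there were 2 higher, Igf2r and Igfbp6 (4.17% of all probe sets), and 4 lower, Pappa, Stc1, Shc1 and Sos2 (7.7% of all probe sets). Of 6 further ligands, receptors and adaptors, 2 were higher and 4 lower in the mean. Igf2r, the receptor that clears IGF-2, had 224 ± 31.8 in creatine-fed mice and 185 ± 12.0 in untreated mice (SD) at 1424112_at. In log2 terms the difference was 0.25 ± 0.09 (SE, adjusted p = 0.287, limma). Its other set, 1424111_at, had 130.5 in creatine-fed mice and 132 in untreated mice. Grb10, an imprinted inhibitor of both receptors, had a log2 difference of -0.12, and Irs4, a further adaptor, -0.26. The dimmer Grb10 sets had 0.02 and 0.03, and the dimmer Irs4 set had -0.17.

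Of 12 carriers and proteases, 6 were higher and 6 lower in the mean. Igfbp6, a binding protein that prefers IGF-2, had 232.5 ± 19.4 in creatine-fed mice and 182 ± 33.0 in untreated mice (SD). On the log2 scale they differed by 0.34 ± 0.11 (SE, adjusted p = 0.247, limma). The ranges, 199 to 258 in creatine-fed mice and 138 to 225 in untreated mice, overlapped. Pappa, the protease that cuts the Igfbp4 product, was dim at 9.17 ± 5.12 in creatine-fed mice and 18.3 ± 4.72 in untreated mice (SD). The log2 difference was -0.46 ± 0.13 (adjusted p = 0.212). Other Pappa sets, 1432591_at and 1432592_at, had -0.34 and 0.08. Stc1, whose relative stanniocalcin-2 inhibits that protease, had a log2 difference of -0.32 (adjusted p = 0.369), and its dimmer set 1421984_at had 0.23.

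Of 6 regulators of IGF transcripts and imprinted partners, 1 was higher and 5 lower in the mean. The mRNA-binding Igf2bp1 and Igf2bp3 and the imprinted regulator Plagl1 had log2 differences of -0.36, -0.35 and -0.08, with adjusted p of 0.494, 0.565 and 0.717. Another of the 6 Igf2bp3 sets, 1422610_s_at, had the opposite sign, at 27.5 ± 11.6 in creatine-fed mice and 18.4 ± 4.12 in untreated mice (SD; log2 difference 0.31, adjusted p = 0.394). The phosphoinositide 3-kinase, Akt and FoxO list had 9 of 16 higher and 7 lower. Its smallest p belonged to Pik3r2, Gsk3a and Gsk3b (log2 differences of 0.16, -0.10 and -0.07). Gsk3b, a kinase that Akt inhibits, had 6 probe sets that disagreed: 1437001_at had 1139 ± 258 in creatine-fed mice and 712 ± 197 in untreated mice (SD; log2 difference 0.67, adjusted p = 0.234), while 1439931_at had 73.3 ± 9.40 in creatine-fed mice and 103 ± 16.1 in untreated mice (log2 difference -0.40, adjusted p = 0.171).

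The Ras and MAP kinase list had 7 of 11 higher and 4 lower in the mean. Shc1, an adaptor that couples the receptors to Ras, had 74.7 ± 7.94 in creatine-fed mice and 90.0 ± 9.50 in untreated mice (SD). This amounts to a log2 difference of -0.23 ± 0.08 (SE, adjusted p = 0.284, limma). The dimmer Shc1 set, 1422853_at, had -0.04. Sos2, a Ras exchange factor, had a log2 difference of -0.17, and Shc3, the neuronal relative of Shc1, 0.30 (adjusted p = 0.337 and 0.431). The glucose transport list had 3 of 7 higher and 4 lower. Tbc1d4, which holds back the insulin-responsive transporter until Akt acts on it, had a log2 difference of -0.21, and the transporters Slc2a4 and Slc2a3 had -0.19 and -0.06 (adjusted p of 0.478, 0.631 and 0.743). The dimmer Tbc1d4 set, 1455903_at, had 0.14, and the dimmer Slc2a3 sets had -0.03 to 0.06. The dimmer Slc2a4 set, 1415959_at, had 17.2 ± 9.06 in creatine-fed mice and 30.0 ± 4.24 in untreated mice (SD), a log2 difference of -0.51 ± 0.14 (SE, adjusted p = 0.204, limma).

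Markers of other cell types were read beside the Igfbp5 and Igfbp2 values. None of these lists held a gene past the adjusted threshold, and at an unadjusted p under 0.05 their counts stand against 4.17% of all probe sets higher and 7.7% lower. Of 10 mural cell markers, 4 had the higher mean in creatine-fed mice, and 2 of these had an unadjusted p under 0.05 (limma). Those 2 were Acta2, an actin of smooth muscle, and Myh11, its myosin partner (log2 differences of 0.36 and 0.33). Acta2 had 484.5 ± 88.9 in creatine-fed mice and 369.6 ± 20.8 in untreated mice (SD). The other 6 mural markers had the lower mean, with 0 at that p, the lowest log2 difference being -0.15 for Pdgfrb. Cerebral cortex markers were higher in 8 of 9, with 2 higher and 1 lower at that p. The lower one was Cux1 (log2 difference -0.23). Mef2c, which encodes a MADS-box DNA-binding protein, had 2315 ± 88.7 in creatine-fed mice and 1894 ± 221 in untreated mice (SD; log2 difference 0.30, adjusted p = 0.201), and the groups did not overlap, as in 0.56% of all probe sets. Rorb, a marker of the fourth cortical layer, had a log2 difference of 0.24.

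Oligodendrocyte markers had the lower mean in 6 of 7 genes, 3 of them at an unadjusted p under 0.05, with a summed intensity of 17040 to 19167 in creatine-fed mice and 18536 to 23208 in untreated mice. Astrocyte markers were lower in 7 of 9, with 2 at that p, and microglial markers higher in 8 of 9, with 0. Of those 2 astrocyte markers, Fgfr3 had 441 to 548 in creatine-fed mice and 551 to 609 in untreated mice. Its log2 difference was -0.21 (adjusted p = 0.244, limma), and the groups did not overlap, as in 0.56% of all probe sets. Endothelial markers were higher in 5 of 11 and lower in 6, with 1 of the lower at that p. On the log2 scale the cerebellar list was higher in 8 of 10, with 0 at that p, and the olfactory bulb list lower in 8 of 8, with 1. Both counts include untreated replicate 3, which had the lowest cerebellar marker mean of all mice (6.77) and the highest olfactory bulb marker mean (7.22). Some cerebellar signs turned on the linear scale and others did not. Gabra6 had a log2 difference of 0.42 but linear means of 1422 in creatine-fed mice and 1470 in untreated mice. Neither list was counted without that mouse. Leptomeninges markers had 1 higher and 1 lower at that p, and choroid plexus markers 0. Gabra6, Acta2, Myh11, Pdgfrb, Mef2c, Rorb, Cux1 and Fgfr3 were named after their values were seen. The part of these markers in the IGF values was not tested, other than through the covariates named above and in the closing section.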

How the data were processed

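The deposited table holds 1 intensity per probe set and array, on a linear scale in whole numbers, for 45101 probe sets. On every array the mean without the highest and lowest 2% was 150.05, the form of a global scaling by the authors; the submitters' processing notes name only RMA, which gives log2 values, so the values contradict it. No further scaling was applied. Biotin-labelled cRNA came from 3 µg of RNA, per the labels. After setting aside 64 control probe sets, 45037 were tested (34945 with 1 symbol, 932 with several, 9160 with none listed here). Log2(intensity + 16), creatine-fed minus untreated, was fitted with limma 3.58.1 in R 4.3.3 (2-sided, no covariates, Benjamini-Hochberg over all probe sets, threshold 0.05); relations used 100000 permutations.

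Arrays are labelled biological replicates. The limma p-values set a difference or slope against the spread between them, and those of the relations come from permuting the mice. The members and lists were chosen with earlier results of these data known. Named genes are all members, the 3 smallest p of each pathway list, the 4 brightest markers of choroid plexus and leptomeninges, and the 3 most similar genes of 4 members. Gabra6, Acta2, Myh11, Pdgfrb, Mef2c, Rorb, Cux1 and Fgfr3 were named after their values were seen. So were the other probe sets of Gsk3b, Igf2bp3, Slc2a4, Stc1, Grb10, Irs4, Pappa, Shc1, Tbc1d4 and Slc2a3. Alternatives were offsets of 1 and 50, the 22519 brighter probe sets, quantile and median scaling, eBayes with trend and robust, array weights, a replicate block, marker covariates and leaving out mice. In simulated data of 45037 probe sets, 45% of changes of 0.5 planted on the log2 scale were recovered, as were 84% of those of 1. All changes were planted at once, with noise drawn separately for each probe set and array. That makes the adjusted threshold easier to pass than in the real data, where 4 probe sets passed. These shares therefore do not give the power for the members.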

Additional observations from a re-analysis of the deposited data

Results flagged for a closer look

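Of 54 groups of mice, each the 6 or 7 values of 1 probe set in 1 diet, 2 had an extreme mouse by Dixon's test, where chance flags about 1 in 20. Creatine replicate 6 had 432 for Igfbp4 at 1423757_x_at, with 329 the next highest creatine-fed value. Untreated replicate 6 had 189 for Igfbp5 at 1422313_a_at, with 121 the next highest untreated value.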

How the results depend on the processing

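No probe set of the 10 genes passed the adjusted threshold under any of the 26 alternatives (smallest adjusted p 0.146, Igfbp5 among the 22519 brighter probe sets, where 21 of the 27 were tested). The 2 at an unadjusted p under 0.05 (7.41%, against 11.9% of all) became 1 of 21 among the brighter probe sets (16.6% of all), 4 after centring on array medians (11.1%), 5 with the olfactory bulb covariate (12.3%), 1 with the replicate number as a block (11.4%), and 2 to 3 when single mice were left out (9.83% to 12.1%). Over all probe sets, the 4 that passed became 0 with an offset of 1, 36 with an offset of 50, 137 among the brighter probe sets, 2 after quantile normalization, 161 with trend and robust eBayes, 13 with array weights, 0 with the leptomeninges or olfactory bulb covariate, 0 without untreated replicate 3 and creatine replicate 4 together, and 0 to 6 when single mice were left out; it was 0 without creatine replicates 3 or 5 or any of untreated replicates 2 to 6, and 2 without untreated replicate 7. With the replicate number as a block it was 0. The deviations of same-numbered mice had r from -0.06 to 0.15. Differently numbered mice were not set beside these, so whether the numbers pair mice was not tested. The cause of the changes in these counts was not tested either. Of the 27 log2 differences, 17 kept their sign throughout and 10 turned under at least 1 alternative, among them the brightest sets of Igf2, Igf1r, Insr and Igf1. The cerebellar and olfactory bulb covariates, leaving out both mice and the correlations without untreated replicate 3 were chosen after seeing the data. Signals near or under the array median, as for 1421380_at, and the number of arrays limit the precision.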
